A study of Mus musculus with 9 samples.

Results

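The pigment epithelium and melanin genes followed here were *Tyr*, *Tyrp1*, *Dct*, *Pmel*, *Mlana*, *Best1*, *Ttr*, *Slc45a2* and *Oca2*. They were taken by symbol from the gene tables, in which they are 9 of 25239 gene names, and the rule that chose them uses names and no level. Bulk RNA-Seq was carried out on retinas of mice at P42, with 3 libraries for each of the genotypes +/+, Cre/+ and Cre/Cre, and a library held the paired retinas of 1 mouse. Cre/+ stands for Rbpms-CreERT2/+ and Cre/Cre for Rbpms-CreERT2/CreERT2, all groups have a C57BL/6J background, and the design text of the series describes the 3 genotypes as taken from the same litters. In the knock-in allele a P2A-CreERT2 cassette follows the *Rbpms* coding sequence in frame, so the *Rbpms* promoter drives the recombinase in ganglion cells, and no other engineered allele or drug is named in the labels of these libraries. The purpose of the comparison was to learn whether the knock-in allele alters the retinal transcriptome. These 9 genes are best known from the tissue that adjoins the retina.

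The retinal pigment epithelium is a single layer of pigmented cells behind the photoreceptors. It regenerates the visual chromophore, takes up shed outer segments, and makes melanin in organelles called melanosomes, as do the melanocytes of the choroid. Neural retina makes no melanin, and when it is lifted out of the eyecup the epithelium mostly stays behind, with some of its cells or processes adhering to the photoreceptors. In the albino mouse tyrosinase is inactive, whereas C57BL/6J mice are pigmented.

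The libraries held 4.05 to 4.65 aligned gigabases, in reads of 150 bases. The 9 listed genes of retinal neurons and Müller glia summed to 28335 to 34655 TPM, a length-adjusted share of the transcripts of a library, so the tissue carried its labelled markers. The 9 pigment genes together gave 18.8 to 66.2 TPM. *Rbpms*, the gene that carries the cassette, was at 38.4 to 43.4 TPM in +/+, 31.3 to 33.1 TPM in Cre/+ and 19.1 to 24.2 TPM in Cre/Cre retinas. Its log2 fold change against +/+ was -0.36 in Cre/+ (limma adjusted p = 0.355) and -0.96 in Cre/Cre (limma adjusted p = 0.000581). The paper reported no significant difference of *Rbpms*, under a limit on fold change as well as on adjusted p. By immunostaining, a measure of protein, it also reported similar RBPMS signal and similar numbers of RBPMS-positive cells in the 3 genotypes. The cause of the lower RNA values was not tested. One library stood apart in composition. *Rn45s*, a ribosomal RNA precursor, took 9.21% of the TPM of Cre/Cre replicate 1 and 0.0827% to 0.336% of the others. *Xist*, a long noncoding RNA of the inactive X chromosome, was at 2.08 to 3.16 TPM in Cre/+ replicate 3, Cre/Cre replicate 1 and Cre/Cre replicate 3 against at least 516 TPM elsewhere. Libraries low in *Xist* thus occurred in both knock-in genotypes and not in +/+. The level of *Xist* was therefore partly confounded with genotype.

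The promoters of the 3 melanin enzymes are shown because these genes are classical targets of 1 factor. MITF, the master regulator of pigment cells, binds the M-box, an element of 11 bases with the 6 bases CATGTG at its centre. RefSeq promoters of GRCm38.p6 matched 5 of the 9 genes, namely *Tyr*, *Tyrp1*, *Dct*, *Best1* and *Oca2*. The 250 bases before the annotated start are given 5′ to 3′ on the gene's strand, at chr7:87493513-87493762 on the minus strand for *Tyr*, chr4:80833963-80834212 on the plus strand for *Tyrp1* and chr14:118052247-118052496 on the minus strand for *Dct*. Capitals mark the M-box AGTCATGTGCT or, where that run had no exact match, CATGTG on either strand (CACATG when read on the other).
Tyr: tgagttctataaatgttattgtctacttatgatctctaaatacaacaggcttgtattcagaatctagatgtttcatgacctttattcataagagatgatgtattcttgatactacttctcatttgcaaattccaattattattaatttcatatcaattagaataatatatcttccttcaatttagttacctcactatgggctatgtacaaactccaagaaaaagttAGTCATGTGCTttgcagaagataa
Tyrp1: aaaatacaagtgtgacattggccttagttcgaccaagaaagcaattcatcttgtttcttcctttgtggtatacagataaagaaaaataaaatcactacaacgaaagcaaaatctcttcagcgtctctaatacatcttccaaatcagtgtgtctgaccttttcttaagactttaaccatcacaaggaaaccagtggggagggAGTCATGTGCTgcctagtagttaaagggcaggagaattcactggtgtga
Dct: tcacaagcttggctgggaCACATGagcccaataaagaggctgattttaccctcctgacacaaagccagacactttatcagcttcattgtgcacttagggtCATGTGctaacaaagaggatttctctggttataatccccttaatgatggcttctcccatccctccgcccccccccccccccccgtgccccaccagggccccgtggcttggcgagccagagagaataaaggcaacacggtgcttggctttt
The letters AGTCATGTGCT were taken as the longest run shared by the *Tyr* and *Tyrp1* promoters, so these 2 hold them by construction. This run lay 24 to 14 bases before the start in *Tyr* and 49 to 39 bases before it in *Tyrp1*. On either strand it occurred in 7 of 32851 RefSeq promoters of this length (0.0213%), 2 of which were these. *Dct* held no exact copy of the run. It held the centre 150 to 145 bases before the start and again on the other strand at 232 to 227 bases. With its flanks, the copy nearer the start reads GGTCATGTGCT, which differs from the run in the leading base only. The centre, with or without the rest of the run, was present in 4 of the 5 member promoters and in 12.3% of all promoters. *Best1* was the member promoter without it. These matches describe letters and say nothing about binding in these retinas.

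By median TPM over the 9 libraries the order was *Ttr* (26.1), *Dct* (4.08), *Tyrp1* (1.10), *Pmel* (1.09), *Best1* (0.631), *Tyr* (0.291), *Oca2* (0.239), *Slc45a2* (0.215) and *Mlana* (0). Neighbours in this order were compared library by library with an exact two-sided sign-flip permutation test on log2(TPM + 1), with 8 comparisons adjusted together. The order came from the same values, so these tests describe it and are not independent evidence for it. *Ttr* exceeded *Dct*, and *Dct* exceeded *Tyrp1*, in 9 of 9 libraries (exact permutation p = 0.00391, adjusted 0.0156 for each). *Pmel* exceeded *Best1* in 8 of 9 libraries (exact permutation p = 0.0117, adjusted 0.0312). The pairs *Tyrp1* and *Pmel*, *Best1* and *Tyr*, *Tyr* and *Oca2*, *Oca2* and *Slc45a2*, and *Slc45a2* and *Mlana* were not separated beyond their spread (adjusted p of 0.0938 to 0.980). *Ttr* thus made up 60.4% to 85.1% of the summed TPM of the 9 genes, and the other 8 together gave 4.56 to 9.86 TPM.

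*Ttr* encodes transthyretin, a carrier of thyroxine and of the retinol-binding protein that in the eye is made mainly by the pigment epithelium. Its level was 26.1, 32.2 and 11.4 TPM in the +/+ libraries 1 to 3. In the Cre/+ libraries it was 56.4, 35.8 and 22.0 TPM, and in the Cre/Cre libraries 32.3, 24.2 and 17.5 TPM. Cre/+ replicate 1 was the highest of the 9 libraries and +/+ replicate 3 the lowest, a 4.96-fold span, and the ranges of the 3 genotypes overlapped. The log2 fold change was 0.71 (SE 0.51) in Cre/+ against +/+, with an interval of -0.52 to 1.94 and an adjusted p of 0.632 in limma. Cre/Cre differed from +/+ by 0.16 (limma adjusted p = 0.984) and from Cre/+ by -0.55 (limma adjusted p = 0.827). For a gene of its level *Ttr* was unusually variable, with a coefficient of variation of 45.2%, above that of 99.4% of the 3541 genes of like mean, whose median was 8.84%. The library numbered 3 was the lowest of its genotype for *Ttr* in 3 of 3 genotypes, and likewise for *Tyr*, *Tyrp1* and *Dct*, but for *Best1* in 0 of 3, and the labels do not say what the numbers mark. Of these libraries, Cre/+ replicate 3 and Cre/Cre replicate 3 were also low in *Xist*, and +/+ replicate 3 was not. In bulk tissue, fewer cells of a type and less RNA per cell cannot be told apart, and this holds for each level given here.

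The 3 melanin enzymes were measured at low levels. *Dct*, dopachrome tautomerase, acts after tyrosinase in the eumelanin pathway. It was at 4.84, 4.28 and 3.69 TPM in +/+, at 4.08, 4.31 and 3.48 TPM in Cre/+, and at 4.36, 3.71 and 2.41 TPM in Cre/Cre libraries. *Dct* was the steadiest member, with a coefficient of variation of 17.9%, and its genotypes overlapped, with Cre/Cre replicate 3 the lowest library. Its log2 fold changes were -0.09 (SE 0.19) in Cre/+ and -0.25 (SE 0.19) in Cre/Cre against +/+, with adjusted p of 0.891 and 0.862 in limma. The annotated antisense gene *4930435M08Rik* shares 1891 bases with *Dct*, and whether the authors' quantification used strand is not given in the sources used here.

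*Tyrp1* encodes tyrosinase-related protein 1, which oxidises a late intermediate of eumelanin and stabilises tyrosinase. It was at 0.778, 1.61 and 0.778 TPM in +/+, at 2.08, 1.79 and 0.463 TPM in Cre/+, and at 1.10, 2.71 and 0.664 TPM in Cre/Cre libraries. The highest value was in Cre/Cre replicate 2 and the lowest in Cre/+ replicate 3, so both knock-in genotypes spanned the +/+ range. The log2 fold changes against +/+ were 0.20 (SE 0.33) in Cre/+ and 0.22 (SE 0.33) in Cre/Cre, with adjusted p of 0.849 and 0.955 in limma. *Tyr* encodes tyrosinase, the rate-limiting enzyme of melanin synthesis. Its levels were 0.455, 0.291 and 0.109 TPM in +/+, 0.496, 0.473 and 0.154 TPM in Cre/+, and 0.263, 0.423 and 0.159 TPM in Cre/Cre libraries. *Tyr* was under the mean of 1 TPM required for the test over all genes, its genotypes overlapped, and the exact permutation p was 0.5 to 1 over the 3 comparisons.

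*Pmel* forms the amyloid fibrils on which melanin is laid down in the melanosome. It was at 0.850, 1.57 and 1.09 TPM in +/+, at 1.43, 1.71 and 0.778 TPM in Cre/+, and at 0.905, 2.29 and 0.675 TPM in Cre/Cre libraries. Cre/Cre held both the highest and the lowest library, and the log2 fold changes were 0.08 (SE 0.27) in Cre/+ and 0.03 (SE 0.27) in Cre/Cre against +/+, with adjusted p of 0.935 and 0.995 in limma. *Pmel* shares 105 annotated bases with *Dgka* on the opposite strand, which had a median of 10.9 TPM.

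*Slc45a2* and *Oca2* encode melanosomal transport proteins whose loss causes oculocutaneous albinism. *Slc45a2* was at 0.214, 0.693 and 0.273 TPM in +/+, at 0.296, 0.380 and 0.184 TPM in Cre/+, and at 0.0593, 0.215 and 0 TPM in Cre/Cre libraries. Cre/Cre replicates 1 and 3 were the lowest of the 9 libraries, but Cre/Cre replicate 2 reached the lowest +/+ value (exact permutation p = 0.2, where 3 against 3 libraries can give no less than 0.1). *Oca2* was listed at 0 in +/+ replicates 1 and 2 and at 0.239 TPM in +/+ replicate 3. It was at 0.385, 0.707 and 0.217 TPM in Cre/+ and at 0.326, 0.172 and 0.307 TPM in Cre/Cre libraries. Both knock-in genotypes thus had *Oca2* in every library while +/+ had it in 1 of 3, yet the ranges overlapped and the exact permutation p was 0.2 for each against +/+.

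*Mlana* encodes a melanosomal membrane protein needed for the maturation of Pmel. It was listed at 1.19, 0 and 0.447 TPM in the +/+ libraries and at 0 in all 6 knock-in libraries (exact permutation p = 0.4 for each knock-in genotype against +/+). *Best1* encodes bestrophin-1, a calcium-activated chloride channel of the basolateral membrane of the pigment epithelium. Its levels were 0.501, 0.642 and 0.834 TPM in +/+, 1.08, 0.232 and 0.631 TPM in Cre/+, and 1.15, 0.264 and 0.347 TPM in Cre/Cre libraries. The highest *Best1* libraries were replicate 1 of both knock-in genotypes, the +/+ libraries lay between the extremes of each, and the exact permutation p was 0.9 to 1.

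**Figure D1:**
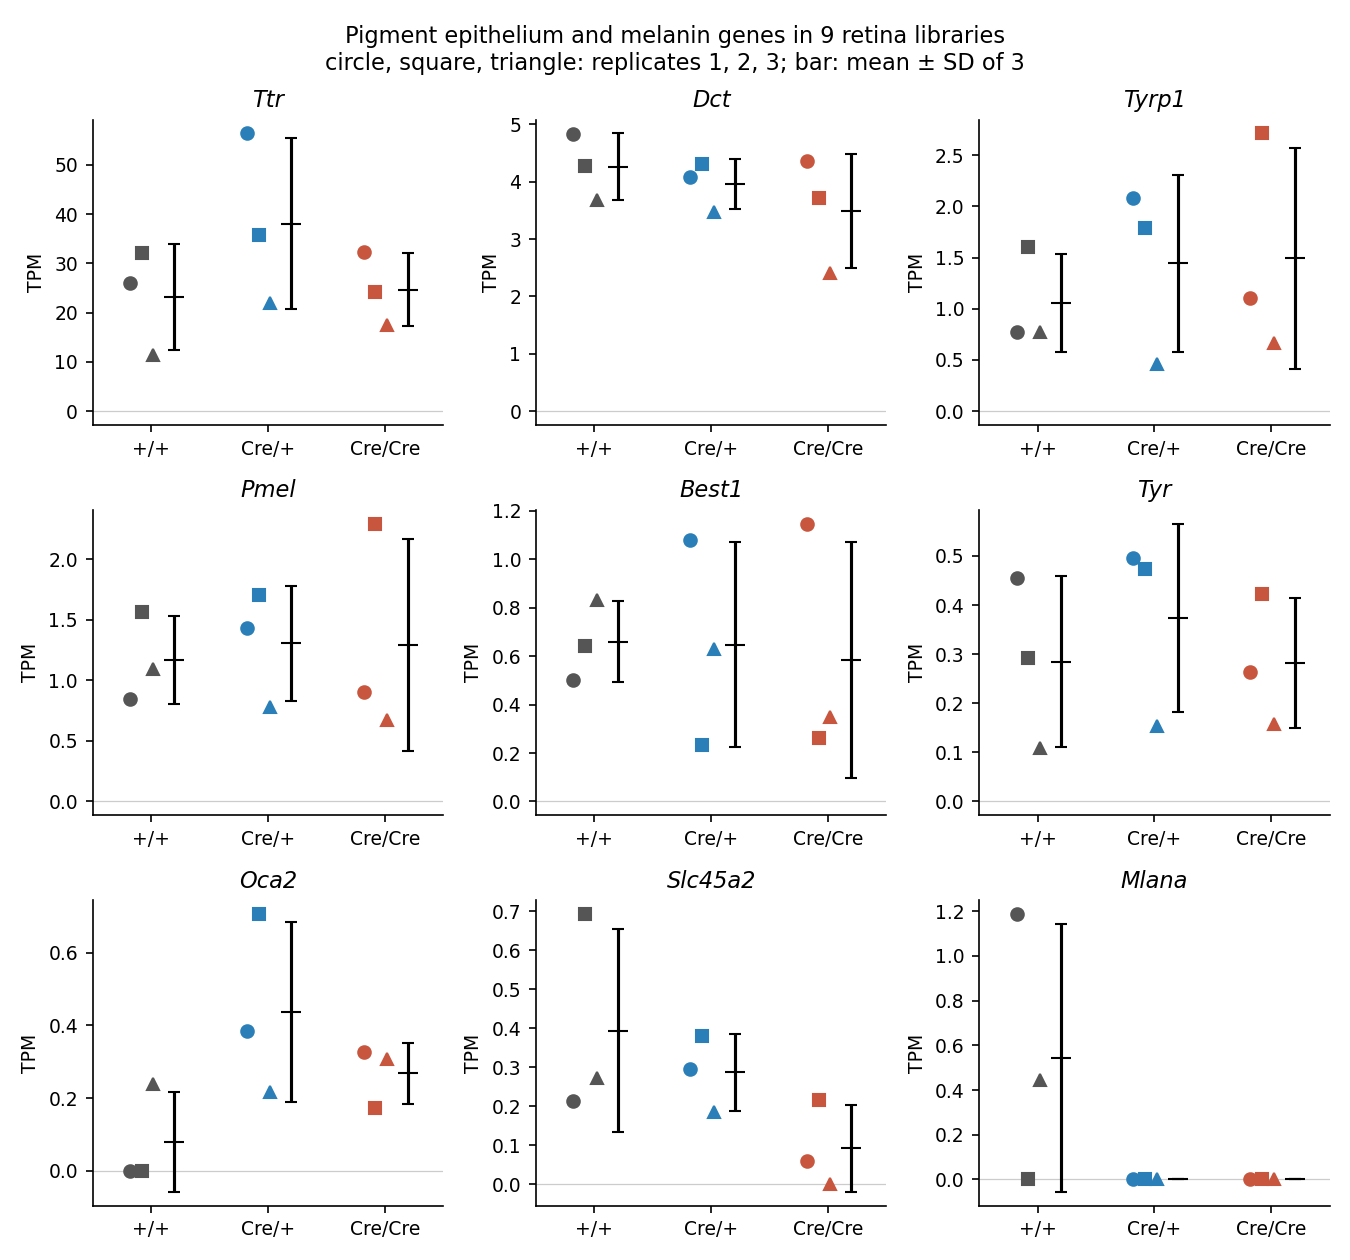
TPM of the 9 genes (vertical axes, a scale for each gene) in the 3 genotypes (horizontal axes); circles, squares and triangles are replicates 1, 2 and 3, and the bar is the mean ± SD of 3 libraries. Ttr spans 11.4 to 56.4 TPM, Mlana is above 0 in 2 libraries of +/+, and the genotype ranges meet or overlap for each gene.

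Across genotypes, 0 of the 4 genes that reached a mean of 1 TPM (*Tyrp1*, *Dct*, *Pmel* and *Ttr*) passed an adjusted p of 0.05 in limma in any comparison, and 0 had an unadjusted p under 0.05. The share of all 15198 tested genes past the adjusted p was 0.00658% in Cre/+ against +/+, 0.00658% in Cre/Cre against +/+, 0.0132% in Cre/Cre against Cre/+ and 0.0132% for any difference among the genotypes. At an unadjusted p under 0.05 these shares were 10.7%, 6.97%, 6.58% and 8.63%. In TPM, the genotypes met or overlapped in 27 of 27 comparisons of a member between a pair of genotypes, with exact permutation p of 0.2 to 1. Of all tested genes, 22.2%, 10.8% and 12% did not overlap in the 3 comparisons. These shares cover genes with a mean of 1 TPM, which 4 members reached, and the 27 comparisons include the fainter members too. *Mlana*, at 0 in all knock-in libraries, could only meet between Cre/Cre and Cre/+. The shares are thus not a like measure for the members. The median log2 fold change of the 4 tested members was 0.14 in Cre/+ and 0.09 in Cre/Cre against +/+, beside 0.00 and -0.02 over all tested genes.

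**Figure D2:**
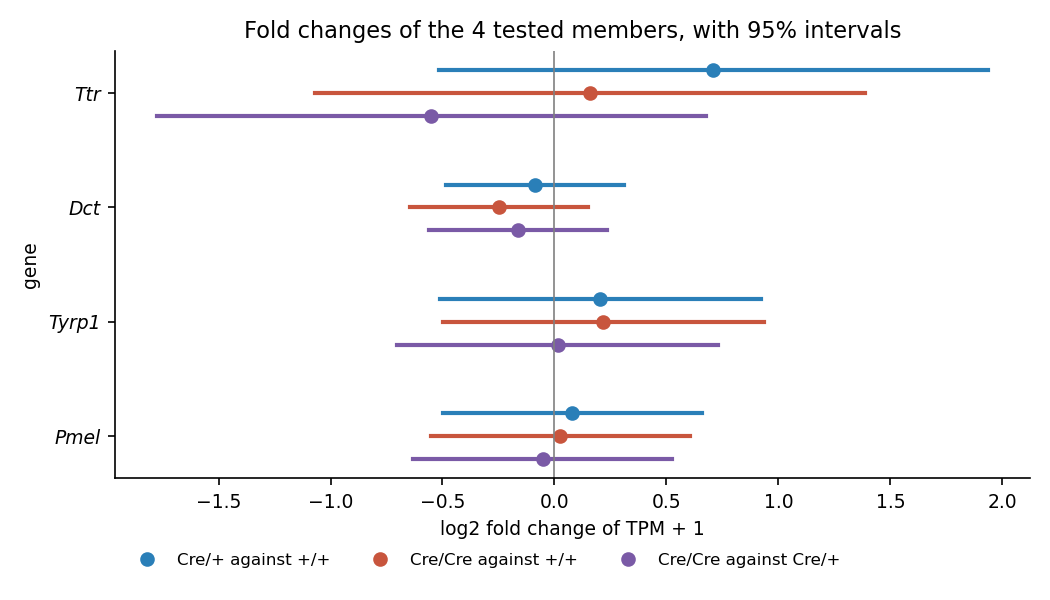
Log2 fold changes of TPM + 1 (horizontal axis) of the 4 tested genes (vertical axis) in the 3 comparisons, with points for the limma estimates and lines for their 95% intervals. Each interval includes 0, and those of Ttr are the widest, from -0.52 to 1.94 in Cre/+ against +/+.

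The depth of the libraries set how finely the low genes were resolved. For *Tyr*, *Tyrp1*, *Dct*, *Best1*, *Slc45a2* and *Oca2*, a gene length was inferred, by search, as one at which coverage times length gave whole aligned bases, within 0.02, in each library above 0. On that basis *Dct* rested on 91.0 to 185 reads a library, *Tyrp1* on 10.2 to 62.6 reads, *Tyr* on 5.25 to 26.9 reads and *Best1* on 3.88 to 20.2 reads. The length found is that of an annotated transcript for *Tyr* and *Slc45a2*, and of none for *Tyrp1*, *Dct*, *Best1* and *Oca2*. For *Dct* it was 4526 bases, and at its longest transcript of 3459 bases *Dct* would rest on 69.5 to 141 reads. *Slc45a2* rested on up to 19.1 and *Oca2* on up to 17.7 reads, so that 1 read was worth 0.0408 TPM and 0.0398 TPM. The value of *Mlana* in +/+ replicate 1 corresponds to at most 9.07 reads at the length of its longest annotated transcript of 906 bases. These are aligned bases divided by 150, so they need not be whole, and they cover counting error only.

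Counting error, taken from the mean number of read pairs, gave a coefficient of variation of 8.38% for the coverage of *Ttr*, against 49.7% observed over the 9 libraries, a 5.93-fold excess. No length was inferred for *Ttr*, *Pmel* and *Mlana*, so their read pairs were taken at the longest annotated transcript. For *Tyrp1* 25.5% was set by counting and 59.8% was observed, a 2.34-fold excess. The excess was 1.69-fold for *Dct*, 1.51-fold for *Pmel*, 1.43-fold for *Tyr*, 1.22-fold for *Best1*, 1.52-fold for *Slc45a2*, 1.49-fold for *Oca2* and, with 2 libraries above 0, 1.86-fold for *Mlana*.

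**Figure D3:**
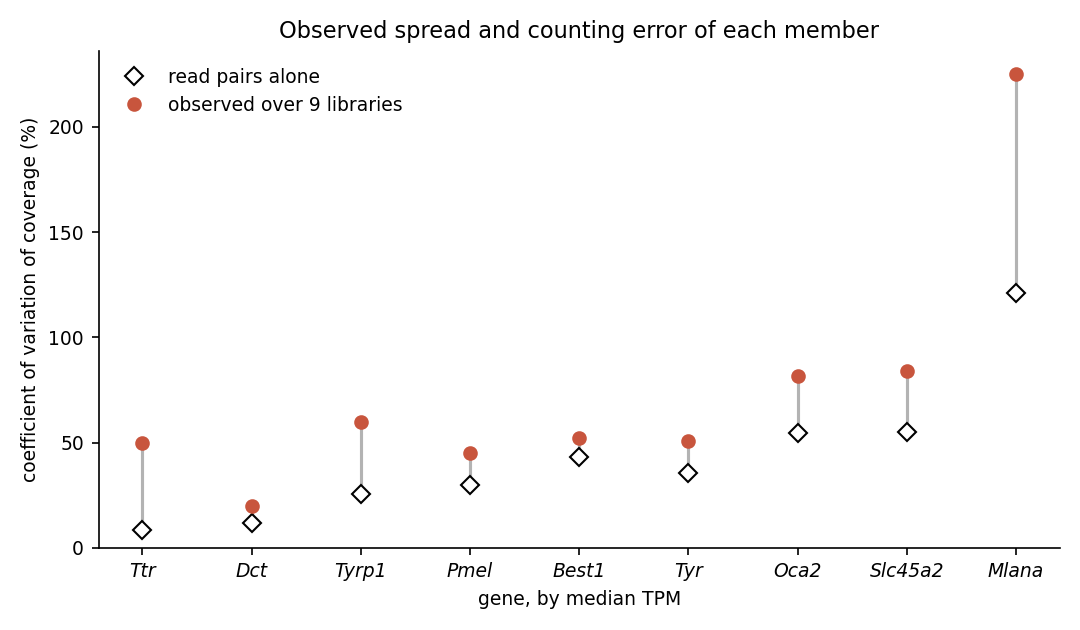
Coefficient of variation of the coverage over the 9 libraries (vertical axis, %) for each gene, in order of median TPM (horizontal axis); filled circles are observed values and open diamonds are counting error from read pairs. The observed value of Ttr is 49.7% over a counting error of 8.38%, and Best1 has the least excess, 52.3% over 42.9%.

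The 6 correlations among the 4 tested genes were all above 0, from 0.329 to 0.930. *Tyrp1* and *Pmel* were the pair that passed, with Pearson's r of 0.930 (exact permutation p = 0.000761, adjusted 0.00456) and Spearman's rho of 0.883 (exact permutation p = 0.00308, adjusted 0.0185) over 9 libraries. Without Cre/+ replicate 1 and Cre/Cre replicate 2, which lie farthest from the median of *Tyrp1*, r was 0.906, and it was 0.943 for deviations from the genotype means. The ratio of *Pmel* to *Tyrp1* in TPM stayed between 0.687 and 1.68. Cre/Cre replicate 2, the highest library for both, also held the most RNA of lens genes (1093 TPM over 10 genes, others 16.7 to 264 TPM) and of 8 choroid and scleral genes (57.0 TPM, others 19.8 to 24.3 TPM). Of the latter sum *Fbln1*, a matrix protein, gave 32.8 TPM, and the other 7 genes gave 24.2 TPM (17.7 to 20.8 TPM in the other libraries). Of these 7, *Col1a2* and *Pdgfra* were at their highest, 7.17 and 8.36 TPM. *Plvap*, a marker of fenestrated vessels, was at its lowest, 5.59 TPM. *Col1a1*, *Col3a1*, *Dcn* and *Lum* lay within the range of the other libraries. Cre/+ replicate 2, the next highest for *Pmel*, had the lowest lens sum of 16.7 TPM, and without Cre/Cre replicate 2 the r of *Tyrp1* and *Pmel* was 0.888. *Tyrp1* and *Ttr* gave r of 0.588 (adjusted exact permutation p = 0.288) and rho of 0.667 over the 9 libraries. Without Cre/Cre replicate 2 their r was 0.789 (adjusted exact permutation p = 0.0510), the highest over each library left out in turn. Leaving out any other library gave r of 0.482 to 0.609 (adjusted exact permutation p of 0.221 to 0.506).

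With the 5 fainter members included, *Tyrp1* and *Pmel* remained the 1 pair of 36 past an adjusted p of 0.05 by Pearson's r (adjusted exact permutation p = 0.0274) but not by Spearman's rho (adjusted exact permutation p = 0.111), and 23 of the 36 correlations were above 0. *Tyr* followed *Ttr* with r of 0.776 (exact permutation p = 0.0100) and *Tyrp1* with r of 0.721 (exact permutation p = 0.0357), which did not pass after adjustment over 36 pairs (0.180 and 0.429). *Dct* gave r of 0.330 with *Tyrp1* and 0.509 with *Ttr*. *Best1*, although a gene of the same epithelium, gave r of 0.218 with *Ttr* and -0.308 with *Pmel*, at 3.88 to 20.2 reads a library.

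**Figure D4:**
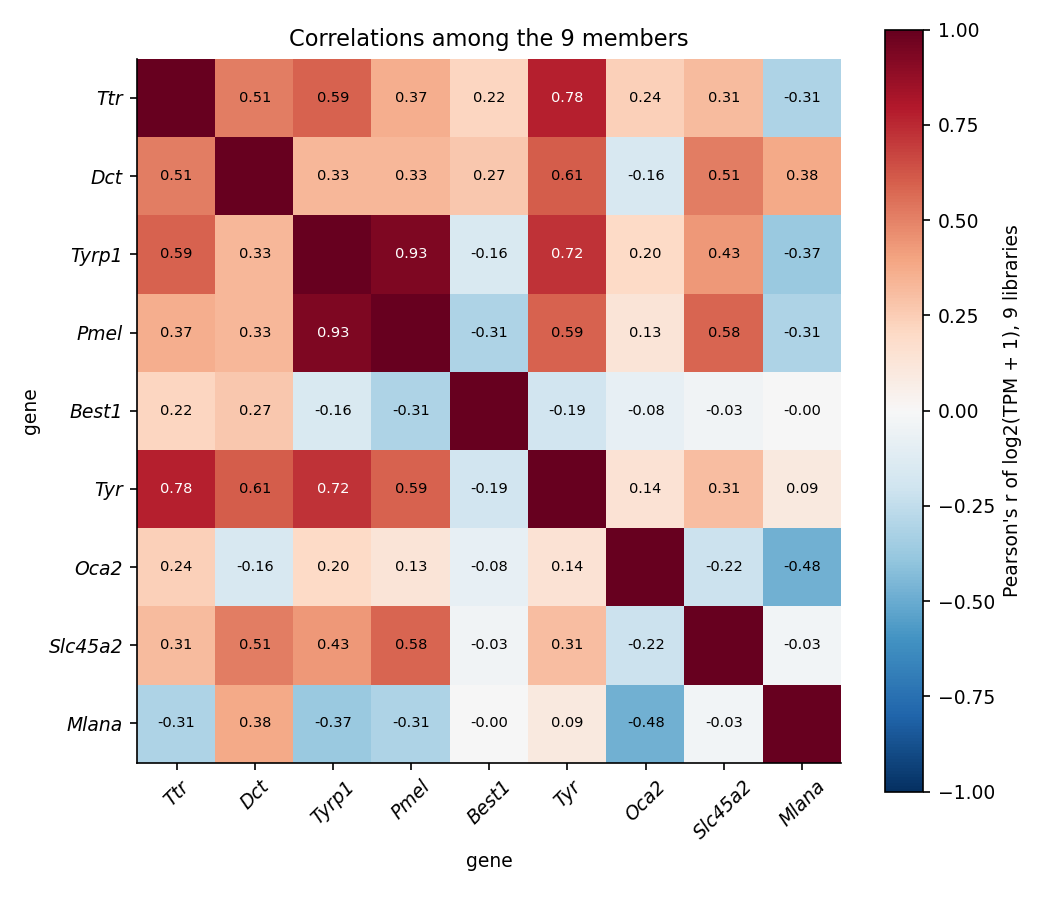
Pearson's r of log2(TPM + 1) over the 9 libraries for each pair of the 9 genes (both axes, in order of median TPM), coloured from -1 to 1. The strongest cell is Tyrp1 with Pmel at 0.93, followed by Tyr with Ttr at 0.78 and Tyr with Tyrp1 at 0.72.

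*Ttr* varied together with 3 visual cycle genes of the pigment epithelium. The other genes of a pigment epithelium list without melanin genes numbered 13, of which 11 were tested, and each was paired with the 4 tested members, 44 pairs in all, a family added after the values were seen. *Ttr* correlated with *Rgr*, an opsin of pigment epithelium and Müller glia, with r of 0.993 (exact permutation p = 8.27e-06, adjusted 0.000364) and rho of 0.983. Its r was 0.969 with *Rdh5*, the 11-cis-retinol dehydrogenase (adjusted exact permutation p = 0.00255), and 0.963 with *Rpe65*, the retinoid isomerase (adjusted exact permutation p = 0.00279). These were the 3 pairs of 44 that passed, and *Tyrp1*, *Dct* and *Pmel* had 0 of 33. The other tested genes of the list did not pass with *Ttr*. Their r was 0.831 for *Lrat*, 0.674 for *Ermn* and 0.458 for *Slc16a8* (adjusted exact permutation p of 0.103, 0.351 and 0.683). It was 0.26 for *Stra6*, 0.03 for *Tspan10*, -0.0033 for *Rlbp1*, -0.10 for *Krt18* and -0.27 for *Mertk*.

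The libraries lay in nearly the same order for these genes. *Rgr* was at 7.78, 8.99 and 2.76 TPM in +/+, at 16.7, 10.1 and 6.97 TPM in Cre/+, and at 9.38, 6.60 and 4.40 TPM in Cre/Cre libraries. *Rpe65* ranged from 1.03 TPM in +/+ replicate 3 to 11.6 TPM in Cre/+ replicate 1, and *Rdh5* from 4.90 to 13.1 TPM in the same libraries. Cre/+ replicate 1 was thus the highest and +/+ replicate 3 the lowest for *Ttr*, *Rgr*, *Rdh5* and *Rpe65* alike. The ratio of *Ttr* to *Rgr* in TPM stayed between 3.15 and 4.12, a 1.31-fold span, while *Ttr* alone spanned 4.96-fold and *Rgr* alone 6.08-fold. Without those outermost libraries r with *Ttr* was 0.971 for *Rgr*, 0.905 for *Rdh5* and 0.860 for *Rpe65*, and it was 0.993, 0.970 and 0.976 for deviations from the genotype means.

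**Figure D5:**
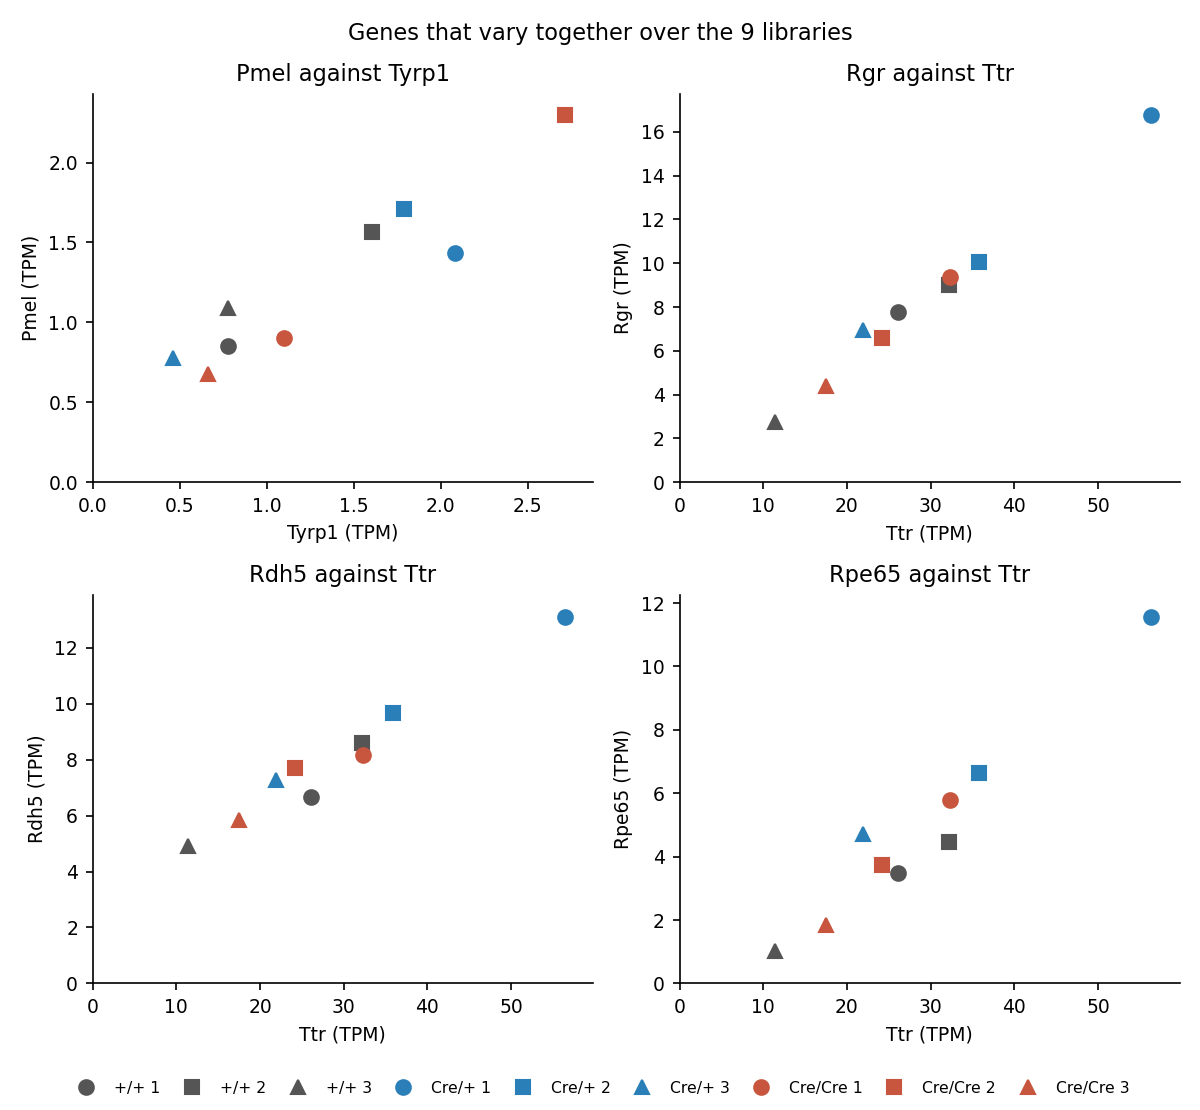
TPM in each of the 9 libraries of Pmel against Tyrp1 and of Rgr, Rdh5 and Rpe65 against Ttr (both axes linear from 0); colours are genotypes and shapes are replicates 1 to 3. The Rgr points lie near a line through 0, with ratios of Ttr to Rgr of 3.15 to 4.12, and Cre/+ replicate 1 is at the upper end of the 3 panels with Ttr.

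A ranking of 15194 tested genes outside the 9 by their r with *Ttr* placed *Rgr*, *Rdh5* and *Rpe65* in ranks 1 to 3, followed by *Dkkl1* (0.921) and *0610040B10Rik* (0.896), and this ranking too was added after the values were seen. *Kcnj13*, a potassium channel of the pigment epithelium, was in rank 10 with r of 0.845. Against the mean standardised profile of the 4 tested members, the genes most alike over the 9 libraries were *Atp5mpl* (r of 0.965), *Rsu1* (0.936), *Gm2004* (0.908), *Chrna5* (0.904), *Bckdhb* (0.900), *2010001A14Rik* (0.898), *Rasl12* (0.895), *Mvp* (0.894), *1700030C10Rik* (0.887) and *Neil2* (0.884). In that ranking *Rdh5* was in rank 47 (r of 0.790), *Rgr* in rank 80 and *Rpe65* in rank 110.

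Genes of the pathway beyond the 9 did not pass the adjusted p between genotypes. Of 26 further genes of melanosome structure and transport, 24 were tested, and 0 rose or fell in any of the 3 comparisons at an adjusted p of 0.05. At an unadjusted p under 0.05, *Bloc1s5*, a subunit of a complex that sorts cargo to melanosomes, had a log2 fold change of -0.20 in Cre/+ against +/+ (limma adjusted p = 0.405). *Hps6*, a subunit of another such complex, had one of 0.42 in Cre/Cre against +/+ (limma adjusted p = 0.655), with 3.64, 5.69 and 6.58 TPM in +/+ and 7.04 to 7.43 TPM in Cre/Cre libraries. *Bloc1s2*, a subunit of the complex that holds *Bloc1s5*, had one of 0.23 in Cre/Cre against Cre/+ (limma adjusted p = 0.740). That is 1 of the 24 in each comparison, beside 10.7%, 6.97% and 6.58% of all tested genes at an unadjusted p under 0.05. The genotypes did not overlap for *Bloc1s5*, *Hps6* and *Bloc1s2* in these respective comparisons, nor for 22.2%, 10.8% and 12% of all tested genes. Other genes of the list did not overlap either, such as *Slc24a5* in Cre/+ against +/+. The highest of this list were *Cd63*, *Ap3d1* and *Bloc1s1*, with means of 193, 137 and 96.7 TPM, and these also serve endosomes and lysosomes in other cells. *Gpr143*, a receptor on the melanosomes of pigment cells, had a mean of 0.119 TPM.

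Of 7 pigment cell regulators, 5 were tested and 0 passed the adjusted p. *Mitf* was at 5.55 to 8.13 TPM and *Tfec*, a MITF relative of the pigment epithelium, was listed at 0 in all 9 libraries. Of the 15 pigment epithelium genes, with *Best1* and *Ttr* among them, 12 were tested and 0 passed the adjusted p. Their median log2 fold change was 0.35 in Cre/+ and 0.13 in Cre/Cre against +/+, beside 0.00 and -0.02 over all tested genes, and 11 and 9 of the 12 were above 0. *Rdh5* in Cre/+ against +/+ (log2 fold change 0.51, limma adjusted p = 0.428) and *Slc16a8*, a lactate transporter of the epithelium, in Cre/Cre against Cre/+ (-0.59, limma adjusted p = 0.740) had an unadjusted p under 0.05. Of all tested genes, 10.7% and 6.58% did so in these comparisons. Cre/+ replicate 1 carried the highest *Ttr*, *Rgr*, *Rdh5* and *Rpe65*, and without it the log2 fold change of *Ttr* in Cre/+ against +/+ was 0.38. Over each library left out in turn this value ranged from 0.28 without +/+ replicate 3 to 1.04 without Cre/+ replicate 3. The part of Cre/+ replicate 1 in the median of the list was not tested.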

How the data were processed

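The authors extracted total RNA, prepared strand-specific poly(A)-enriched libraries and sequenced pairs of reads of 150 bases. Per the labels, Trimmomatic, HISAT2, SAMtools, StringTie and DESeq2 were used with mm10, and their versions are not given in the sources used here. The deposited TPM, FPKM and coverage are the authors' StringTie values per gene, without counts. DESeq2 was therefore not repeated.

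TPM were summed by symbol. The 15198 genes whose TPM averaged 1 or more over all libraries, 4 of the 9 members among them, were tested by limma 3.58.1 (R 4.3.3) on log2(TPM + 1), with a trend and a robust prior, in 1 model with genotype alone, and adjusted by the Benjamini-Hochberg method. A fold change on this scale understates that of low genes. Members below the filter had exact two-sided permutation tests on TPM. Correlations used all 362880 pairings of the libraries. Coverage times gene length gave aligned bases. Scripts were tested on simulated data. Members and lists were chosen with earlier results of these data known. The genes named are the members, genes of the pigment lists with an unadjusted p under 0.05 or among the 3 highest of a list, and the 10 genes most like the mean of the tested members, and other genes were named after their values were seen. Nothing in the labels but the mouse separates the libraries of a genotype.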

Additional observations from a re-analysis of the deposited data

Results flagged for a closer look

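*Mlana* in +/+ replicate 1 stood far from the other 8 libraries. It was at 1.19 TPM, the next library, +/+ replicate 3, was at 0.447 TPM, and the other 7 were listed at 0. The gap to the next library was 0.624 of the whole range, above the critical value of 0.493 for 9 values. The highest and the lowest library of each of the 9 genes were examined in this way over all libraries pooled. Chance would mark about 5% of groups of untied values. With 7 libraries of *Mlana* tied at 0, its gap depends on 2 values alone, so this rate does not hold for it. The mark is descriptive, and the 1.19 TPM rest on at most 9.07 reads at the longest annotated transcript. In the test with a minimum mean of 0.1 TPM, the log2 fold change of *Mlana* was -0.55 in each knock-in genotype against +/+ (limma adjusted p = 0.496 in Cre/+ and 0.725 in Cre/Cre).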

How the results depend on the processing

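The count of members past the adjusted p was 0 in each comparison under each alternative: a pseudocount of 0.1, no filter, a minimum mean of 0.1 TPM, FPKM (which left *Dct* and *Ttr* to test), median-ratio scaling, *Xist* as a covariate, no robust prior, only the genotypes compared, and each library left out. With no filter, *Oca2* in Cre/+, *Slc45a2* in Cre/Cre and *Mlana* in each knock-in genotype had an unadjusted p under 0.05 against +/+ (limma adjusted p of 0.494 to 0.730). At the minimum of 0.1 TPM only *Mlana* did. With the replicate number as a block the count past the adjusted p was also 0. *Ttr* then had an unadjusted p under 0.05 in Cre/+ against +/+ (log2 fold change 0.71, SE 0.19, limma adjusted p = 0.480). So it had in Cre/Cre against Cre/+ (-0.55, limma adjusted p = 0.784) and for any difference among the genotypes (limma adjusted p = 0.600). Same-numbered libraries did not deviate together over all genes (r of -0.12 to 0.13, 1 of 9 above 0.1), so the numbers were not treated as a pairing. With *Xist* as a covariate *Tyrp1* moved to 0.87 in Cre/Cre (limma adjusted p = 0.848) and 0.52 in Cre/+ (0.499) against +/+, both with an unadjusted p under 0.05, and *Pmel* to 0.49 in Cre/Cre (0.973). Of 210 alternative fold changes of the tested members 0 passed, and 15 turned their sign. In Cre/Cre, *Pmel* was -0.0066 against +/+ with a pseudocount of 0.1 and 0.19 against Cre/+ with *Xist* as a covariate. With each library left out, in Cre/+ against +/+ *Pmel* ranged from -0.048 to 0.26 and *Tyrp1* from 0.00011 to 0.54. In Cre/Cre against +/+ the ranges were -0.11 to 0.47 for *Tyrp1*, -0.27 to 0.22 for *Pmel* and -0.27 to 0.45 for *Ttr*. In Cre/Cre against Cre/+ they were -0.32 to 0.26 for *Tyrp1*, -0.30 to 0.024 for *Dct* and -0.35 to 0.14 for *Pmel*. *Tyrp1* with *Pmel* passed by Pearson's r under each alternative (r of 0.888 to 0.952), as did the 3 pairs of *Ttr* (r of 0.936 to 0.998) under median-ratio scaling, a pseudocount of 0.1 and each library left out, chosen after seeing the data. By Spearman's rho 0 member pairs passed with the minimum of 0.1 TPM, without Cre/+ replicate 3 and without Cre/Cre replicate 3, and 1 or 2 of the 3 pairs of *Ttr* in 6 of 11 alternatives. With 3 libraries a genotype, the 95% intervals in Cre/+ against +/+ still ran from -0.51 to 0.92 for *Tyrp1* and -0.52 to 1.94 for *Ttr*. Changes within them remain compatible with these data.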
